A study of Mus musculus with 5 samples.

Results

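Foxp3-positive regulatory T cells were 200 of the 57661 barcodes kept from 5 single-cell libraries of immune cells sorted from mouse tumours. A barcode was kept with at least 500 unique molecular identifiers (UMIs, each standing for 1 captured RNA molecule), 250 genes or more, and no more than 10% of its UMIs from mitochondrial genes. A kept barcode was a member if it held at least 1 UMI of Foxp3, at least 1 UMI of the T cell receptor complex genes Cd3d, Cd3e or Cd3g, no UMI of the co-receptor genes Cd8a and Cd8b1, no UMI of the macrophage gene Csf1r and at most 3 UMIs of the complement genes C1qa, C1qb and C1qc. Members were therefore chosen by measured counts, and the levels of these genes are given below as a description only. The rule gave 67 members in library JAG2KO 1 and 64 in JAG2KO 2, against 29, 20 and 20 members in Scramble 1, 2 and 3.

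The mice carried flank tumours of the Lewis lung carcinoma line, which derives from a mouse lung cancer. In the JAG2KO group (2 libraries) the injected cancer cells carried a guide RNA against Jag2, which encodes a ligand of Notch receptors. In the Scramble group (3 libraries) they carried a scrambled guide. The guide was in the cancer cells, so the T cells described here were host cells, in both groups taken at the end of the experiment and sorted as live cells with CD45 on their surface. The labels give neither strain, age nor number of animals, nor whether the JAG2KO cells were 1 clone, and nothing says that the libraries came from separate mice, so a p-value here reflects the spread between these libraries, which may be technical. The series title asks how targeting Jagged2 changes anti-tumour immunity through tumour macrophages.

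Regulatory T cells are CD4 T cells that restrain other immune cells, and the transcription factor Foxp3 sets up and keeps their programme. They carry the high-affinity interleukin-2 receptor, whose alpha chain is encoded by Il2ra, and the inhibitory receptor Ctla4, which takes co-stimulatory ligands away from antigen-presenting cells. In tumours they are often activated, express receptors of the TNF family such as OX40 (Tnfrsf4) and GITR (Tnfrsf18), and are weighed against CD8 T cells when the immune state of a tumour is described.

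The libraries held 8221 to 19338 kept barcodes. JAG2KO 2 stood apart, with 19338 kept barcodes at a median of 2422 UMIs, while the other libraries had 8221 to 10328 kept barcodes at medians of 8064.5 to 8965 UMIs. The median member had 3709 and 2548.5 UMIs in JAG2KO 1 and 2, against 2222, 2918.5 and 2495.5 UMIs in Scramble 1, 2 and 3, so that the members of JAG2KO 2 were not the shallowest. Summed over members, the libraries gave 313823 and 225228 UMIs in JAG2KO, against 74032, 71375 and 70673 UMIs in Scramble. Levels below are CPM, the usual scaling of counts to a common total, of these sums, and 1 UMI was worth 13.5 to 14.1 CPM in the Scramble sums. In such sums fewer cells that use a gene and less RNA of it per cell cannot be told apart. Pairs of libraries shared 17 to 54 kept barcode sequences, and no barcode sequence of a member occurred in more than 1 library.

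Foxp3 was found in 530 kept barcodes. Of these, 157 had no Cd3 UMI; of the rest, read in this order, 28 had a Cd8 UMI, 78 had a Csf1r UMI and 67 had more than 3 C1q UMIs, 20 of them exactly 4 (10 and 1 in JAG2KO, against 2, 6 and 1 in Scramble). The last group held 23 barcodes in JAG2KO 1 and 10 in JAG2KO 2, against 5, 23 and 6 in Scramble 1, 2 and 3. Just inside the limit, with 3 C1q UMIs, were 19 and 1 members in JAG2KO 1 and 2, against 7, 11 and 5 in Scramble 1, 2 and 3. In Scramble 2 the barcodes left out at this step outnumbered its 20 members. At the other limit, 89 of the 200 members held a single Foxp3 UMI, and the highest count was 11. A Cd4 UMI was seen in 97 members, and the doublet score placed 4 members among the 8% highest of their library.

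The label held up against the 4 other regulatory T cell markers, while Il7r, listed as a marker of conventional CD4 T cells, was common in members. Foxp3 (ENSMUSG00000039521, chromosome X: 7573644 to 7595245 on the plus strand of GRCm38) stood at 596 and 488 CPM in JAG2KO 1 and 2, against 648, 715 and 693 CPM in Scramble 1, 2 and 3. The rule used these counts. Of the 4 markers it did not use, Il2ra, Ikzf2, Ctla4 and Tnfrsf4, 107 members held UMIs of all 4, 66 of 3, 21 of 2 and 6 of 1, and no member lacked all 4. Il7r had a UMI in 46 of 67 and 48 of 64 members in JAG2KO 1 and 2, against 14 of 29, 13 of 20 and 10 of 20 in Scramble 1, 2 and 3. Ikzf2 encodes Helios, a transcription factor of regulatory T cells, and had a UMI in 100% and 98.4% of JAG2KO members, against 89.7%, 100% and 100% of Scramble members. In macrophage barcodes (at least 1 Csf1r UMI, at least 4 C1q UMIs and no Cd3 UMI), whose median depth was 5021 to 10711.5 UMIs, 3.56% to 5.79% held an Ikzf2 UMI. Thinned to 1000 UMIs each, 88.5% to 100% of members still held one, against 0.4% to 1.4% of macrophage barcodes. Foxp3 itself had a UMI in 0.146% to 0.530% of macrophage barcodes.

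Several defining genes of other lymphocytes had no UMI in the members. Ms4a1 of B cells, Ncr1 and Klrb1c of NK cells, and Trdc, Tcrg-C1 and Il17a of gamma-delta T cells were at 0 UMIs, and 0 of 200 members allows a share of up to 1.5% of members with a UMI, which sets no limit on cells that express these genes. Ms4a1, Il17a and Tcrg-C1 were sparse in all kept barcodes as well, with 187, 204 and 345 UMIs. Other markers of these types were seen: the B cell gene Cd79b had a UMI in 12 members, and Cd79a, Klre1 and Eomes in 1 member each. Ighm, the heavy chain of IgM, stood at 255 and 249 CPM in JAG2KO 1 and 2, against 229.6, 462 and 283 CPM in Scramble 1, 2 and 3, with Ms4a1 at 0. RNA of myeloid cells was present in all 5 member sums. The 6 macrophage markers outside the rule (Lyz2, Apoe, Adgre1, Cd68, Ms4a7 and Cd14) summed to 1440.3 and 377 CPM in JAG2KO 1 and 2, against 3215, 2606 and 1387 CPM in Scramble 1, 2 and 3. The 5 neutrophil markers, led by S100a8 and S100a9, summed to 31.9 and 17.8 CPM in JAG2KO, against 2269, 280.2 and 226 CPM in Scramble. Single members of Scramble 1 held 71 of its 85 S100a8 UMIs and 55 of its 78 S100a9 UMIs. In macrophage barcodes the same 6 macrophage genes summed to 22632 to 28209 CPM.

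**Figure D1:**
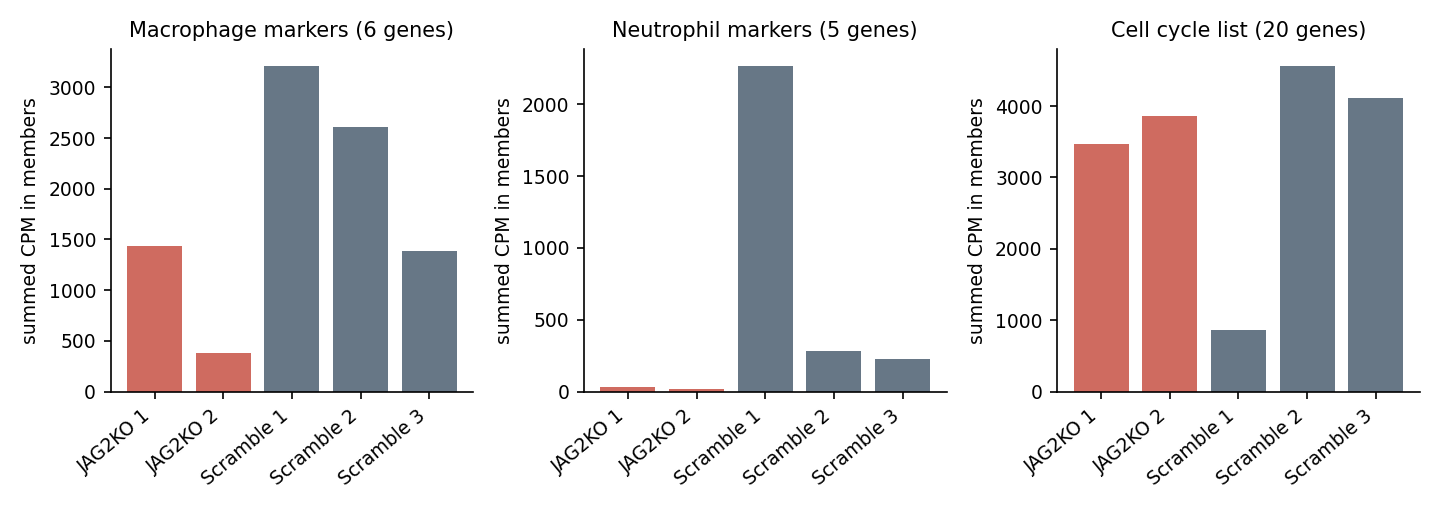
Summed levels in members (CPM, 1 bar for each library) of 6 macrophage markers, 5 neutrophil markers and the 20 genes of the cell cycle list, with JAG2KO libraries in red and Scramble libraries in blue-grey. Neutrophil RNA is at most 31.9 CPM in JAG2KO and at least 226 CPM in Scramble, and Scramble 1 stands apart with 2269 CPM of neutrophil markers and 864 CPM of cell cycle genes. Single members of Scramble 1 held 71 of its 85 S100a8 UMIs and 55 of its 78 S100a9 UMIs.

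Members were a larger share of all kept barcodes in JAG2KO tumours, a smaller share of the Cd3 barcodes without Cd8, and far fewer in proportion to CD8 T cells. They were 0.652% and 0.331% of kept barcodes in JAG2KO 1 and 2, against 0.305%, 0.194% and 0.243% in Scramble 1, 2 and 3. The exact 95% (Clopper-Pearson) intervals, in which counting error is the only error, were 0.506% to 0.828% in JAG2KO 1 and 0.255% to 0.422% in JAG2KO 2, against 0.204% to 0.438%, 0.118% to 0.299% and 0.149% to 0.375% in Scramble 1, 2 and 3. The groups did not overlap, but the interval of JAG2KO 2 overlapped those of all 3 Scramble libraries. The means were 0.492% ± 0.227 in JAG2KO (SD, n = 2) and 0.247% ± 0.0559 in Scramble (SD, n = 3), a ratio of 1.99, with p = 0.1 by a two-sided exact permutation test, the smallest p that 10 splits of 5 libraries can give. Without JAG2KO 1 the ratio was 1.34.

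The call of no overlap depended on the C1q limit, the Foxp3 count and depth. With no limit on C1q, members were 0.876% and 0.383% of kept barcodes in JAG2KO 1 and 2, against 0.358%, 0.416% and 0.316% in Scramble 1, 2 and 3, so that JAG2KO 2 lay below Scramble 2 (ratio of means 1.73, exact permutation p = 0.2). With the whole rule read on barcodes thinned to 1000 UMIs, the shares were 0.417% and 0.162% in JAG2KO, against 0.207%, 0.248% and 0.18% in Scramble, and the groups overlapped (ratio 1.37, exact permutation p = 0.7). With at least 2 Foxp3 UMIs asked for, they overlapped as well (ratio 2.25, exact permutation p = 0.2).

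Among barcodes with Cd3 and without Cd8, Csf1r or more than 3 C1q UMIs, members were 23.7% and 16.8% in JAG2KO 1 and 2, against 28.2%, 24.7% and 25.3% in Scramble 1, 2 and 3. A regulatory T cell with no Foxp3 UMI counts only in this denominator, which also holds NK and gamma-delta T cell genes, as described below. JAG2KO libraries were both below Scramble libraries, with means of 20.2% ± 4.86 in JAG2KO (SD, n = 2) and 26.1% ± 1.85 in Scramble (SD, n = 3) and an exact permutation p of 0.1, again the smallest possible. With barcodes thinned to 1000 UMIs the shares were 13.3% and 6.98% in JAG2KO, against 20%, 22.9% and 18.4% in Scramble, also without overlap. The groups overlapped with at least 1000 UMIs, at most 5% mitochondrial UMIs or at least 2 Foxp3 UMIs asked for (exact permutation p of 0.3, 0.2 and 0.7), and the direction turned among barcodes with no C1q UMI (ratio 1.06), where Scramble 2 had 0 members. The denominators differed as well, since these Cd3 barcodes made up 2.76% and 1.97% of kept barcodes in JAG2KO, against 1.08%, 0.784% and 0.961% in Scramble (ratio of means 2.51, exact permutation p = 0.1).

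Set against CD8 T cells, the members of JAG2KO tumours were few. Barcodes with Cd3 and Cd8 UMIs that met the same limits numbered 150 and 190 in JAG2KO 1 and 2, against 12, 8 and 10 in Scramble 1, 2 and 3. There were 44.7 and 33.7 members for every 100 of them in JAG2KO, against 242, 250 and 200 in Scramble, and no JAG2KO library came near a Scramble one. The ratio of means was 0.170 (exact permutation p = 0.1, the smallest possible) and stayed between 0.137 and 0.195 over the other quality filters, the C1q limits above 3, the stricter Foxp3 count and the leaving out of each library. With no C1q UMI allowed there was no such ratio: Scramble 1 and 3 then had 0 Cd8 barcodes, and Scramble 2 had 0 members beside 1 Cd8 barcode. This ratio was computed after the excess of CD8 cells in JAG2KO tumours was known, and the Scramble denominators are 8 to 12 barcodes.

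**Figure D2:**
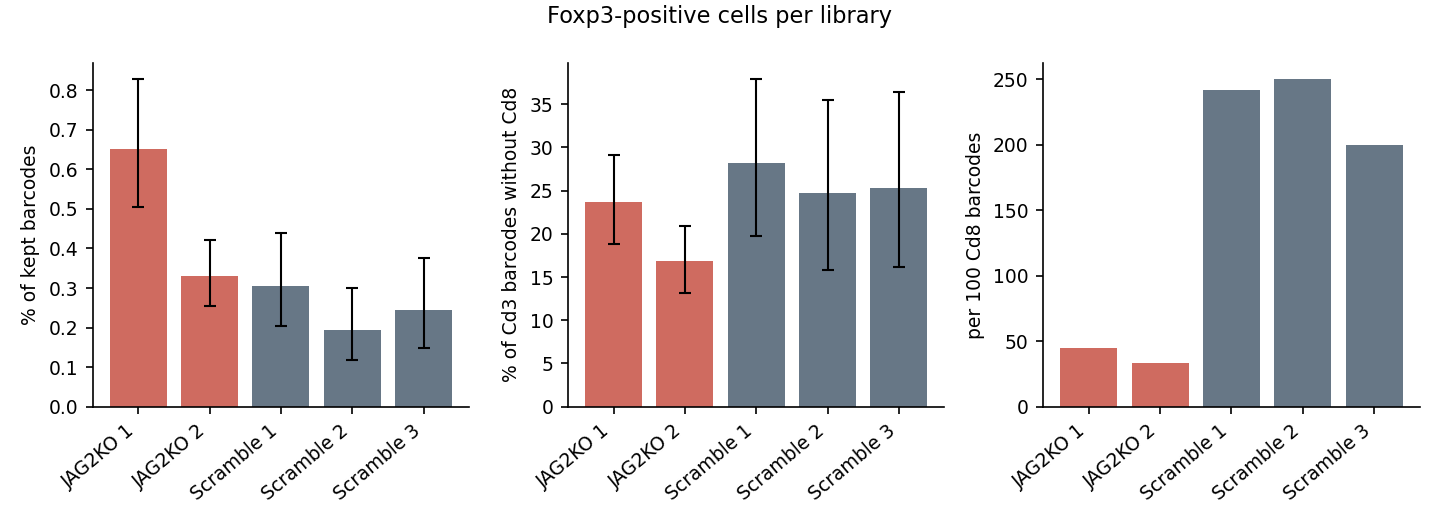
Foxp3-positive members in each library as a percentage of kept barcodes, as a percentage of Cd3 barcodes without Cd8, and as a number per 100 Cd8 barcodes, with exact 95% intervals in the panels of percentages (JAG2KO red, Scramble blue-grey). JAG2KO libraries are highest in the panel of kept barcodes at 0.652% and 0.331%, and lowest in the panel per 100 Cd8 barcodes at 44.7 and 33.7.

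The receptors that mark regulatory T cells overlapped between the groups. Il2ra stood at 994 and 546 CPM in JAG2KO 1 and 2, against 486, 869 and 792 CPM in Scramble 1, 2 and 3, with JAG2KO 1 highest and Scramble 1 lowest. Ctla4 stood at 1386 and 861 CPM in JAG2KO, against 1378, 1051 and 1061 CPM in Scramble. Tnfrsf4 stood at 1784 and 1483 CPM in JAG2KO, against 1607, 1121 and 1457 CPM in Scramble, and Tnfrsf18 at 1141 and 883 CPM in JAG2KO, against 1283, 967 and 1005 CPM in Scramble. The highest library was JAG2KO 1 for Ctla4 and Tnfrsf4 and Scramble 1 for Tnfrsf18. Icos, a co-stimulatory receptor of activated T cells, had 1201 and 1061 CPM in JAG2KO, against 824, 1107 and 962 CPM in Scramble. JAG2KO 2 was the lower JAG2KO library in all 5 of these receptors.

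The transcription factors of these cells were likewise present in every library. Ikzf2 had 2919 and 2571 CPM in JAG2KO 1 and 2, against 2931, 2970.2 and 3749.7 CPM in Scramble 1, 2 and 3. Both JAG2KO libraries thus lay below all Scramble libraries, by little in the case of Scramble 1 (log2 fold change -0.20 ± 0.21, adjusted p = 0.806, edgeR's quasi-likelihood test). Ikzf4 (Eos, a partner of Foxp3) had 277 and 271 CPM in JAG2KO, against 122, 196 and 269 CPM in Scramble, so that both JAG2KO libraries lay above all Scramble libraries, by little in the case of Scramble 3 (log2 fold change 0.52 ± 0.30, adjusted p = 0.702, edgeR's quasi-likelihood test). Gata3, a factor of type 2 helper cells that regulatory T cells of tissues also express, had 386 and 329 CPM in JAG2KO, against 351, 336 and 453 CPM in Scramble. Of the 20 genes of other helper lineages, 8 had no UMI in any member, among them the cytokines Il4, Il5, Il13, Il17f, Il21, Il22 and Csf2. Tigit, Ccr8 and Gpr83, which are widely used as markers of regulatory T cells, had at most 13.5 CPM in any member sum. They had only 23, 7 and 19 UMIs over all 57661 kept barcodes, so nothing about the members is read from their low counts.

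The genes of suppression and tissue repair had UMIs in some members and none in others, and at this depth a cell without a UMI may still express the gene. Gzmb, the protease granzyme B, had 1055 and 231 CPM in JAG2KO 1 and 2, against 1378, 869 and 552 CPM in Scramble 1, 2 and 3. A single member of JAG2KO 1 held 163 of the 331 Gzmb UMIs of that library, and without it the level there was 562 CPM. Areg, the growth factor amphiregulin made by tissue-repair regulatory T cells, had a UMI in 25 of 67 and 23 of 64 members in JAG2KO, against 13 of 29, 8 of 20 and 5 of 20 members in Scramble. Over all libraries, 36 members held both Gzmb and Areg, 45 held Gzmb alone, 38 Areg alone and 81 neither. Klrg1 or Il1rl1, which mark terminally differentiated and interleukin-33-responsive cells, had a UMI in 104 of 200 members. By library, 35.0% to 46.3% of members held a Gzmb UMI and 25.0% to 44.8% an Areg UMI, against 0.969% to 2.50% and 2.18% to 4.62% of the deeper macrophage barcodes. Thinned to 1000 UMIs, 22.7% to 30.0% of members held Gzmb and 15.2% to 35.0% Areg, against at most 1.2% of macrophage barcodes for either gene. Il10, the suppressive cytokine interleukin-10, was rare, with 79.7 and 71.0 CPM in JAG2KO, against 27, 14.0 and 0 CPM in Scramble, and it was carried by 3 and 6 members in JAG2KO, against 1, 1 and 0 members in Scramble. A single member of JAG2KO 1 held 17 of its 25 Il10 UMIs. It did not pass the filter on low counts. Without that filter it was called in the interaction of cell type and group described last, where Foxp3-negative Cd4 cells had 25.2 and 7.36 Il10 CPM in JAG2KO, against 330.0, 82.1 and 0 CPM in Scramble. The sums of those cells held only 33334, 12176 and 14963 UMIs in Scramble 1, 2 and 3, so these levels rest on few UMIs.

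Some members held RNA of many cell cycle genes. At least 5 genes of a 20-gene cell cycle list had a UMI in 15 of 67 and 13 of 64 members in JAG2KO 1 and 2, against 1 of 29, 4 of 20 and 3 of 20 members in Scramble 1, 2 and 3. The list summed to 3464 and 3863 CPM in JAG2KO, against 864, 4567 and 4118 CPM in Scramble, so that Scramble 1 alone was low and the groups overlapped. Members with at least 5 of these genes were deep, with medians of 7992 and 6783 UMIs in JAG2KO, against 7534, 6634.5 and 8262 UMIs in Scramble, while the other members had medians of 2189 to 3439.5 UMIs. Mki67, a marker of cycling cells, had 315 and 337 CPM in JAG2KO, against 54.0, 364 and 354 CPM in Scramble.

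Few Notch pathway genes were seen at more than a trace in the members. Of the 19 genes of that list, 8 had no UMI, among them the ligands Dll1, Dll4 and Jag2 and the target genes Heyl, Dtx1 and Nrarp. The list summed to 711 and 568 CPM in JAG2KO 1 and 2, against 743, 743 and 764 CPM in Scramble 1, 2 and 3. The receptor gene Notch1 had 66.9 and 93.2 CPM in JAG2KO 1 and 2, against 40.5, 84.1 and 141 CPM in Scramble 1, 2 and 3, and did not pass the filter on low counts. Rbpj, the DNA-binding factor through which Notch receptors act, had 386 and 231 CPM in JAG2KO, against 419, 322 and 311 CPM in Scramble (log2 fold change -0.15, adjusted p = 0.896 by edgeR's quasi-likelihood test). Adam10, a protease that cuts Notch receptors, had 73.3 and 102 CPM in JAG2KO, against 135, 126 and 156 CPM in Scramble, with no overlap, a log2 fold change of -0.66 ± 0.40 and an adjusted p of 0.702 by the same edgeR test.

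To see what set the members apart from cells with Cd4 but no Foxp3 UMI, sums were compared within each library. The comparison set was 127 Foxp3-negative Cd4 cells (at least 1 Cd3 and 1 Cd4 UMI, otherwise the same limits). Regulatory T cells whose Foxp3 RNA was missed can fall into this set. The 4 regulatory T cell markers outside the rule summed to 2891 to 4681 CPM there, against 5461 to 7084 CPM in members. The Foxp3-negative Cd4 cells numbered 42 and 54 in JAG2KO 1 and 2, against 15, 7 and 9 in Scramble 1, 2 and 3. Their sums held 159007 and 135954 UMIs in JAG2KO, against 33334, 12176 and 14963 UMIs in Scramble. Errors of log2 fold changes are standard errors throughout. Of 1247 genes tested with edgeR's quasi-likelihood test and the library as a block, 8 were higher in members at an adjusted p under 0.05 (0.642%) and 10 were lower (0.802%). Higher in members were the receptors Il2ra and Ctla4, the factors Ikzf2 and Hopx, the protease Gzmb and the histone H2afz. Lower in members were Itgb1, the beta 1 integrin, Ms4a4b, Emb, Btg2, Vps37b, Neurl3, Irf2bp2 and Uhrf2.

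Il2ra averaged 738 ± 216 CPM in members and 312 ± 64.3 CPM in Foxp3-negative Cd4 cells (SD, n = 5 libraries each), a log2 fold change of 1.20 ± 0.24 (adjusted p = 0.00832, edgeR), and was higher in members in 5 of 5 libraries. It was not called without JAG2KO 1, with at least 2 Foxp3 UMIs or with no limit on C1q. Ctla4 averaged 1147 ± 228 CPM in members and 664 ± 180 CPM in Foxp3-negative Cd4 cells, a log2 fold change of 0.77 ± 0.16 (adjusted p = 0.0159, edgeR). Ikzf2 averaged 3028 ± 434 CPM in members and 1991 ± 521 CPM in Foxp3-negative Cd4 cells, a log2 fold change of 0.63 ± 0.15 (adjusted p = 0.0305, edgeR). Ctla4 and Ikzf2 were called neither without JAG2KO 1 nor without JAG2KO 2, nor with at least 2 Foxp3 UMIs, with no C1q UMI or with no library block. Ikzf2 was not called without Scramble 1 or with no C1q limit either. Ikzf2 had a UMI in 61.9% and 50% of the Foxp3-negative Cd4 cells of JAG2KO, against 60%, 71.4% and 66.7% of those of Scramble, so that a Helios UMI without a Foxp3 UMI was common in the comparison set.

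Gzmb averaged 817 ± 444 CPM in members and 374 ± 289 CPM in Foxp3-negative Cd4 cells (SD, n = 5 libraries each), with a log2 fold change of 1.52 ± 0.25 (adjusted p = 0.00274, edgeR). It was not called without JAG2KO 1, with barcodes thinned to 1000 UMIs or with no library block. Hopx, a homeobox cofactor described in induced regulatory T cells of mice, averaged 973 ± 397 CPM in members and 388 ± 270 CPM in Foxp3-negative Cd4 cells, a log2 fold change of 1.13 ± 0.20 (adjusted p = 0.00354, edgeR), and was not called with at least 2 Foxp3 UMIs or with no library block. On the other side, Itgb1 averaged 128 ± 38.8 CPM in members and 345 ± 77.3 CPM in Foxp3-negative Cd4 cells, a log2 fold change of -1.54 ± 0.25 (adjusted p = 0.00274, edgeR), and was not called without JAG2KO 2 (adjusted p = 0.0503, edgeR). Ms4a4b, a membrane protein of T cells, averaged 173 ± 122 CPM in members and 584 ± 178 CPM in Foxp3-negative Cd4 cells, a log2 fold change of -1.88 ± 0.32 (adjusted p = 0.00274, edgeR), and stayed called under all 17 alternatives that gave it a value. Btg2, an antiproliferative and stress-induced gene, averaged 224 ± 82.1 CPM in members and 539 ± 122 CPM in Foxp3-negative Cd4 cells, a log2 fold change of -1.25 ± 0.23 (adjusted p = 0.00562, edgeR), and was not called without JAG2KO 2 or with no filter on low counts. Members were deeper than these cells, at medians of 2222 to 3709 UMIs against 1318 to 2988 UMIs, and the part of depth in these differences was tested only by thinning.

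**Figure D3:**
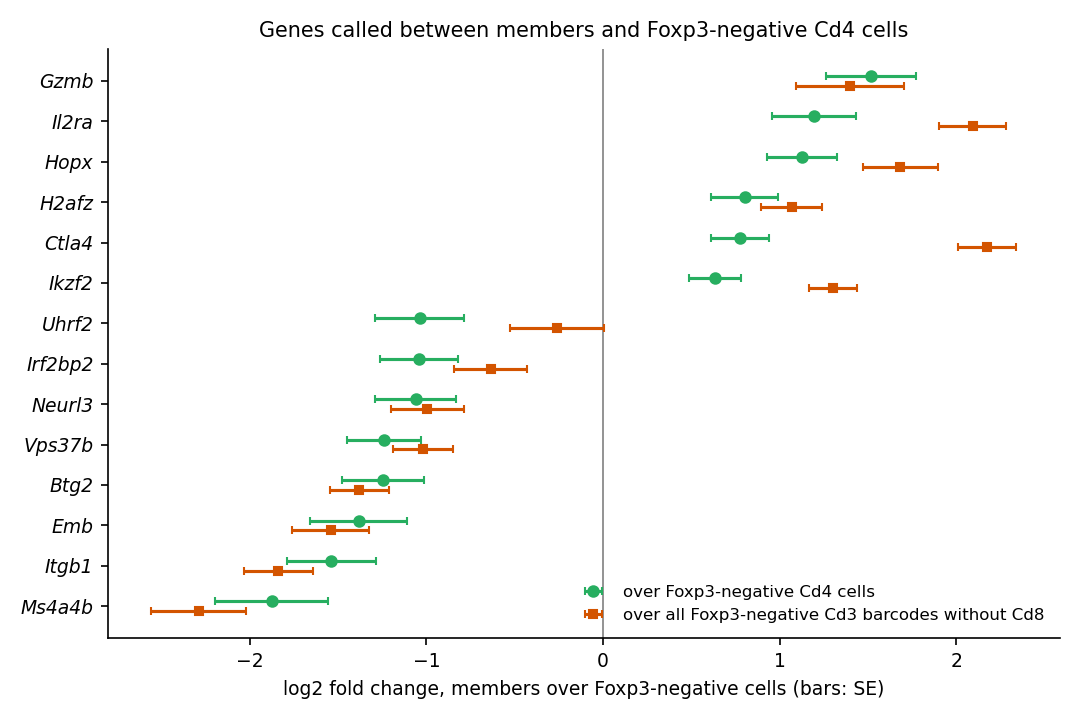
Log2 fold change with its SE (edgeR, library as block) of members over Foxp3-negative Cd4 cells (circles) and over all Foxp3-negative Cd3 barcodes without Cd8 (squares), for the 14 named genes called in the comparison shown by circles. Il2ra, Ctla4 and Ikzf2 lie further to the right against the broader set (2.09, 2.18 and 1.30) than against Cd4 cells (1.20, 0.77 and 0.63).

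Against all 727 Foxp3-negative Cd3 barcodes without Cd8, whether or not a Cd4 UMI was seen, the same members stood out far more. Of 3306 genes tested, 216 were higher in members (6.53%) and 248 were lower (7.5%) at an adjusted p under 0.05 by the same edgeR test. This broader set also holds NK and gamma-delta T cell genes and numbered 216 and 317 barcodes in JAG2KO 1 and 2, against 74, 61 and 59 in Scramble 1, 2 and 3.

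Genes of the regulatory T cell programme were the clearest group among those higher in members. Of 11 core genes tested outside the rule, 9 were higher in members and 0 lower, with a median log2 fold change of 1.97, against -0.011 over all genes tested. Tnfrsf4 averaged 1491 ± 244 CPM in members and 271 ± 84.8 CPM in Foxp3-negative barcodes (SD, n = 5 libraries each), a log2 fold change of 2.34 ± 0.16 (adjusted p = 9.11e-09, edgeR). Against Foxp3-negative Cd4 cells alone, 3 of the 4 markers outside the rule were called, Il2ra, Ctla4 and Ikzf2. Tnfrsf4 was tested there and not called. Izumo1r, the folate receptor 4 of regulatory T cells, averaged 203 ± 32.7 CPM in members and 37.1 ± 20.3 CPM in Foxp3-negative barcodes, a log2 fold change of 2.42 ± 0.26 (adjusted p = 1.66e-06, edgeR). Lrrc32 encodes GARP, which holds latent TGF-beta on the cell surface, and averaged 116 ± 30.8 CPM in members and 33.1 ± 22.2 CPM in Foxp3-negative barcodes, a log2 fold change of 1.97 ± 0.31 (adjusted p = 0.000147, edgeR). Itgb8, the integrin chain that helps to release that TGF-beta, averaged 122 ± 34.5 CPM in members and 26.5 ± 13.8 CPM in Foxp3-negative barcodes, a log2 fold change of 2.28 ± 0.29 (adjusted p = 1.35e-05, edgeR).

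Of 19 activation and effector genes tested, 14 were higher in members and 0 lower, with a median log2 fold change of 1.09. Klrg1 averaged 255 ± 31.8 CPM in members and 45.7 ± 26.1 CPM in Foxp3-negative barcodes, a log2 fold change of 2.32 ± 0.23 (adjusted p = 6.46e-07, edgeR). Tnfrsf9, the receptor 4-1BB, averaged 503 ± 108 CPM in members and 116 ± 36.3 CPM in Foxp3-negative barcodes, a log2 fold change of 1.87 ± 0.20 (adjusted p = 1.47e-06, edgeR). Of 9 genes tested on the list of suppressive mediators, 5 were higher in members and 1 was lower. Among the higher were Areg (log2 fold change 2.11 ± 0.32, adjusted p = 9.28e-05, edgeR), Dusp4 (2.22 ± 0.24) and Ebi3, a subunit of interleukin-35 (1.76 ± 0.27). The lower gene was Lgals3 (-0.96 ± 0.26), which stood at 918 to 1426 CPM in macrophage barcodes. No gene of this list was tested here for a role in suppression. Of 18 glycolysis and hypoxia genes, 7 were higher in members and 0 lower, with Hif1a at a log2 fold change of 1.13 ± 0.16 (adjusted p = 5e-05, edgeR). Outside the lists, Chchd10, Bmyc, Neb and Arl5a were among the 15 largest increases, at log2 fold changes of 2.64, 2.52, 2.28 and 2.04.

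On the lower side, naive and survival genes stood beside genes of other lymphocytes. Bcl2, which protects lymphocytes from cell death, averaged 9.59 ± 12.2 CPM in members and 355 ± 126 CPM in Foxp3-negative barcodes, a log2 fold change of -5.17 ± 0.36 (adjusted p = 1.27e-08, edgeR). Of 9 naive and central memory genes tested, 4 were lower in members, Bcl2, Klf2, Satb1 and Foxp1, and 0 were higher. Of 18 dissociation and stress genes, 12 were lower in members and 0 higher, with a median log2 fold change of -0.95. Cxcr6, a chemokine receptor of tissue-resident T cells, averaged 54.2 ± 15.1 CPM in members and 240.7 ± 58.3 CPM in Foxp3-negative barcodes, a log2 fold change of -2.30 ± 0.23 (adjusted p = 9.21e-07, edgeR). The NK cell receptor genes Klrd1 and Klrk1 and the chemokine gene Xcl1 were at most 14.0 CPM in every member sum and at 132 CPM or more in every Foxp3-negative sum, and Cd7 had 0 UMIs in members, against 90.2 to 178 CPM in Foxp3-negative sums. Myeloid RNA moved with these genes, since 3 of 4 macrophage markers tested and 2 of 2 neutrophil markers were lower in members, and its part in the result was not tested.

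For the remaining lists in this broader comparison, TNF receptor and NF-kB genes had 5 of 12 higher in members and 0 lower, homing receptors 3 of 10 higher and 2 lower, T cell receptor and immediate early genes 3 of 17 higher and 4 lower, and interleukin-2 signalling genes 1 of 10 higher and 2 lower. Interferon genes had 2 of 7 higher and 0 lower, led by Ifi27l2a with a log2 fold change of 1.63 ± 0.15. Gata3 was higher among the 2 helper genes tested, with a log2 fold change of 1.05 ± 0.16. None of 12 cell cycle, 7 lipid and sterol or 4 Notch genes was called. Against Foxp3-negative Cd4 cells alone, the core list had 3 of 8 genes higher in members, the effector list 1 of 11 and the suppressive list 1 of 8, the homing list 1 of 7 lower and the stress list 1 of 12 lower, while no gene of the other 10 lists was called.

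**Figure D4:**
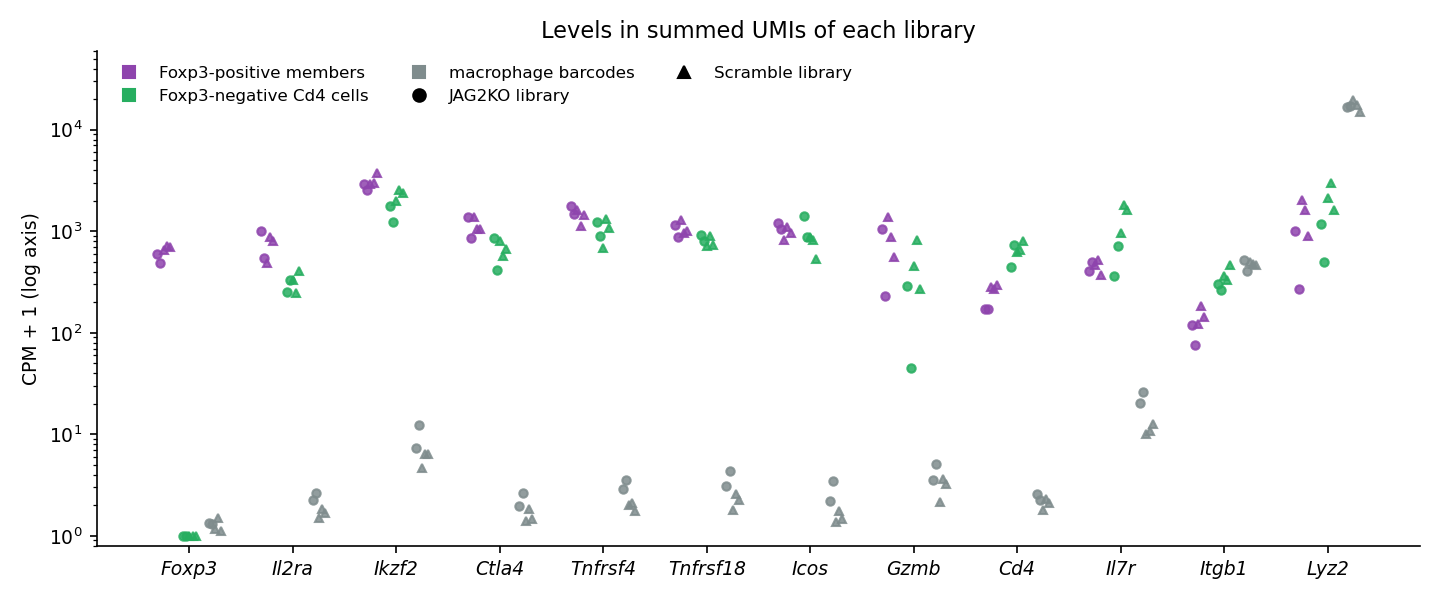
CPM plus 1 on a log axis of 12 genes in the sums of members (purple), Foxp3-negative Cd4 cells (green) and macrophage barcodes (grey), 1 point for each library (circles JAG2KO, triangles Scramble). Foxp3, which the rule used, lies at 488 to 715 CPM in members, and Il2ra is higher in members than in Foxp3-negative Cd4 cells in every library and Itgb1 lower, while Lyz2 shows the macrophage RNA in both.

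Between JAG2KO and Scramble tumours the members' expression differed in 2 called genes, both typical of myeloid cells. Without the filter on low counts, and with both C1q limits above 3, Ccr7, Mt2 and Impdh2 were called as well, higher in JAG2KO. Of 1506 genes tested with edgeR's quasi-likelihood test on the 5 member sums, 2 were called (0.133%), both lower in JAG2KO, and 108 had an unadjusted p under 0.05. DESeq2 called 1 gene. JAG2KO and Scramble libraries did not overlap in 354 of the 1506 genes (23.5%), 167 higher and 187 lower in JAG2KO. With so few libraries, many genes separate in this way without a difference between groups, so a lack of overlap alone is not read as one.

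Spp1 (ENSMUSG00000029304, chromosome 5: 104435118 to 104441050) encodes osteopontin, a secreted protein of tumour macrophages. It had 41.4 and 22.2 CPM in members of JAG2KO 1 and 2, against 581, 238 and 212 CPM in members of Scramble 1, 2 and 3, with no overlap. The log2 fold change was -3.33 ± 0.48 (adjusted p = 0.00462, edgeR). Without Scramble 2, without Scramble 3 and among members with a Cd4 UMI it was not called. Over all kept barcodes Spp1 stood at 684 and 631 CPM in JAG2KO, against 4082, 2893 and 2797 CPM in Scramble. The member level was 6.05% and 3.52% of that in JAG2KO, against 14.2%, 8.23% and 7.59% in Scramble.

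S100a8 (ENSMUSG00000056054, chromosome 3: 90668978 to 90670035) encodes a subunit of calprotectin, a major protein of the neutrophil cytosol. It had 6.37 and 4.44 CPM in members of JAG2KO, against 1148, 140.1 and 99.0 CPM in members of Scramble, a log2 fold change of -6.18 ± 1.06 (adjusted p = 0.0194, edgeR). In Scramble 1 a single member held 71 of the 85 S100a8 UMIs, and without it the level there was 198 CPM. The log2 fold change was -4.19 without Scramble 1, -4.49 without the 8% highest doublet scores and -4.34 with no limit on C1q. S100a8 was called neither by DESeq2 nor without Scramble 2 or Scramble 3. Over all kept barcodes S100a8 stood at 112 and 292 CPM in JAG2KO, against 692, 739 and 753 CPM in Scramble. Except for JAG2KO 1 against Scramble 3, the macrophage markers were lower in JAG2KO member sums in the same way. The sum of neutrophil markers was lower too, but it is led by S100a8 itself and S100a9, so it is not separate from the S100a8 call. The part of myeloid RNA in these calls was not tested.

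The other 8 genes among the 10 smallest p-values were not called here, though some were under alternatives: Fn1 in 6 of 17, Pf4 in 6 of 16, Ccr7 in 5 of 13, Tyrobp in 4 of 17, Thbs1 in 3 of 10, Satb1 in 1 of 13, Ctsd in 1 of 17 and Areg in 0 of 17. Fn1, Thbs1, Pf4, Tyrobp and Ctsd, which stood at 570.4 to 4204 CPM in macrophage barcodes, had log2 fold changes of -1.87, -2.98, -2.13, -1.83 and -1.33 with adjusted p-values of 0.0659, 0.176, 0.190, 0.219 and 0.219 (edgeR), and the groups overlapped in Tyrobp. The other 3 were at most 16.1 CPM in macrophage barcodes. Areg had 398 and 329 CPM in JAG2KO, against 675, 715 and 750 CPM in Scramble, without overlap (log2 fold change -0.94 ± 0.22, adjusted p = 0.176, edgeR). In Scramble 3 a single member held 33 of its 53 Areg UMIs. Without the highest member of each library Areg stood at 280.3 and 262 CPM in JAG2KO, against 583, 453 and 320.5 CPM in Scramble. Ccr7, the receptor that leads T cells to lymph nodes, had 239 and 147 CPM in JAG2KO, against 67.5, 28.0 and 56.6 CPM in Scramble (log2 fold change 1.95 ± 0.44, adjusted p = 0.149, edgeR). It was carried by 16 of 67 and 11 of 64 members in JAG2KO, against 2 of 29, 1 of 20 and 2 of 20 in Scramble. Satb1, a chromatin organiser of naive and developing T cells, had 178 and 147 CPM in JAG2KO, against 67.5, 42.0 and 42.4 CPM in Scramble (log2 fold change 1.69 ± 0.43, adjusted p = 0.219, edgeR), with UMIs in 28 of 67 and 23 of 64 members in JAG2KO, against 4 of 29, 3 of 20 and 3 of 20 in Scramble.

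**Figure D5:**
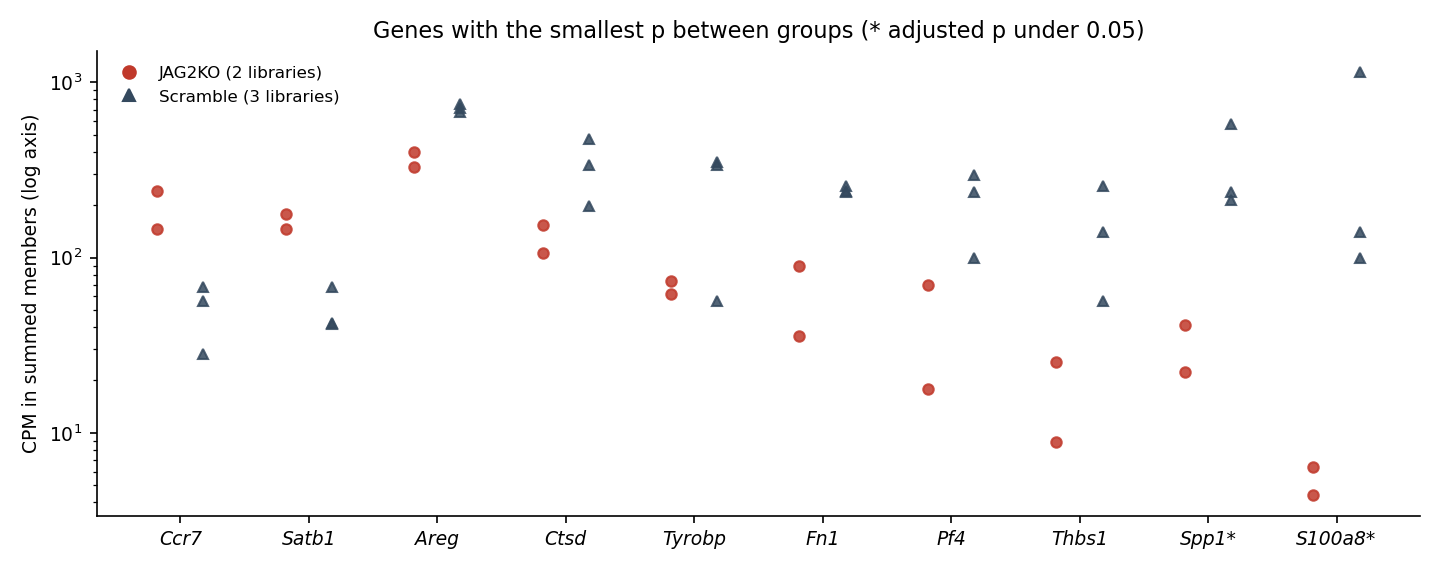
CPM on a log axis of the 10 genes with the smallest p between groups in members, 1 point for each library (JAG2KO red circles, Scramble blue-grey triangles). The 2 called genes, Spp1 and S100a8, lie at the right, at 22.2 to 41.4 and 4.44 to 6.37 CPM in JAG2KO against 212 to 581 and 99.0 to 1148 CPM in Scramble, and Ccr7 and Satb1 at the left are higher in JAG2KO without being called.

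No gene of the 15 lists was called between JAG2KO and Scramble members. The median log2 fold change was 0.065 over 10 core genes, -0.080 over 14 effector genes and -0.23 over 8 genes of the suppressive list, against -0.0026 over all genes tested. Libraries did not overlap in 2 of the 10 core genes, 3 of the 14 effector genes and 4 of the 8 genes of the suppressive list, beside 23.5% of all genes tested. Those of the suppressive list were Dusp4 and Lgals1, higher in JAG2KO, and Areg and Lgals3, lower in JAG2KO. Homing receptors had a median of -0.45 over 8 genes and naive genes of 0.022 over 5, with Ccr7 and Satb1 the 2 without overlap. The other medians lay between -0.40 for 2 Notch genes and 0.19 for 7 cell cycle genes: -0.10 for 2 helper genes, -0.22 for 7 interleukin-2 signalling genes, -0.11 for 8 NF-kB genes, 0.025 for 13 T cell receptor and immediate early genes, -0.10 for 6 interferon genes, 0.030 for 12 glycolysis and hypoxia genes, 0.17 for 4 lipid and sterol genes and -0.17 for 14 stress genes. With 2 libraries against 3, an adjusted p above the threshold does not show that the members were alike.

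Whether JAG2KO changed members differently from Foxp3-negative Cd4 cells was tested as an interaction. Of 1247 genes, 0 were called (0.0%) by edgeR's quasi-likelihood test, 57 had an unadjusted p under 0.05, and DESeq2 called 0. The smallest adjusted p was 0.0502 for S100a8, which was 6.37 and 4.44 CPM in members of JAG2KO, against 1148, 140.1 and 99.0 CPM in members of Scramble, and 0 and 1228 CPM in Foxp3-negative Cd4 cells of JAG2KO, against 90.0, 411 and 200.5 CPM in those of Scramble. In the Foxp3-negative Cd4 cells these levels stood on 0 and 167 S100a8 UMIs in JAG2KO, against 3, 5 and 3 UMIs in Scramble. Ikzf4, Il7r, Rbm25 and Eprs followed with adjusted p-values of 0.517 and above. The 5 neutrophil markers summed to 2898 CPM in the Foxp3-negative Cd4 cells of JAG2KO 2. Il7r, the interleukin-7 receptor that regulatory T cells keep low, had 405 and 493 CPM in members of JAG2KO, against 459, 518 and 368 CPM in members of Scramble, while Foxp3-negative Cd4 cells had 365 and 713 CPM in JAG2KO, against 960.0, 1807 and 1604 CPM in Scramble. Members were not low in Il7r beside all Foxp3-negative Cd3 barcodes without Cd8, at 449 ± 62.0 CPM against 454 ± 152 CPM (SD over libraries).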

How the data were processed

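Single-cell 3' v2 libraries (10x Genomics) of 5 tumour samples were deposited as raw UMI counts per gene and barcode, with empty barcodes removed by the authors, per the series' design text. Cellranger 6.0.0 made them, per the file headers, and Seurat and the build GRCm38 (mm10) are named in the submitters' processing notes. The members and gene lists were chosen with earlier results of these data known. UMIs were summed over members and over Foxp3-negative cells in each library and tested with edgeR 4.0.16 (quasi-likelihood test, TMM, filterByExpr, R 4.3.3), with Benjamini-Hochberg adjustment over all genes tested and a threshold of 0.05. Genes of the rule were left out. The code was tested on simulated data. Shares were compared with exact permutation tests over libraries (scipy 1.17.1). Doublets were scored with Scrublet (scanpy 1.11.5) and kept, apart from an alternative. Genes were named as the 15 largest called changes each way that averaged 20 CPM or more and went the same way in all libraries, or the 10 (interaction: 5) smallest p where fewer than 5 were called; list genes could be named in any case. Alternatives were DESeq2 1.42.0, other filters, C1q and Foxp3 limits, thinning, other comparison cells, blocks, and leaving out each library.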

Additional observations from a re-analysis of the deposited data

How the results depend on the processing

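The 2 genes called between JAG2KO and Scramble members became 1 with DESeq2, 26 with no filter on low counts, 5 without the 8% highest doublet scores, 1 with at least 2 Foxp3 UMIs, 0 with no C1q UMI, 12 with at most 10 C1q UMIs, 5 with no C1q limit, 0 among members with a Cd4 UMI, 5 with sums thinned to the smallest, and 0 to 11 when 1 library was left out. The 18 genes called over Foxp3-negative Cd4 cells became 43 with no filter, 1 with no C1q UMI, 44 with at most 10 C1q UMIs, 33 with no C1q limit, 39 among members with a Cd4 UMI, 464 against Foxp3-negative cells with or without Cd4, 7 with no library block, and 6 to 35 when 1 library was left out. The interaction, with 0 genes called, gave 4 with no filter, 1 with at least 1000 UMIs and 500 genes, 3 with at most 10 C1q UMIs, 2 with no C1q limit, and 0 to 4 when 1 library was left out. The cause was not tested. The C1q limits above 3 were chosen after seeing the data. With no C1q UMI allowed, only 8 and 32 members were left in JAG2KO 1 and 2, against 4, 0 and 5 in Scramble 1, 2 and 3. Those fits tested 429 genes between groups and 210 over Foxp3-negative Cd4 cells, so few genes could be called. The share of members among Cd3 barcodes had a ratio of 1.06 with no C1q UMI, a reversal, and 0.645 to 0.909 when 1 library was left out; the share of kept barcodes had 1.34 to 2.64. With the replicate number as a block, 22 genes were called between groups, among them Fn1, Thbs1, Pf4, Tyrobp, Ctsd, Ccr7 and Gzmb. The numbers pair only 2 libraries of each group and no label says that they mark a shared mouse or day; same-numbered libraries had correlations of 0.10 and 0.10 over 1506 genes. Over the 24 genes named between groups and over Foxp3-negative Cd4 cells, 304 values under the alternatives kept their direction and stayed either called or not called. Of the other values, 59 lost the call, 26 gained one and 0 reversed. Genes named in the broader Cd3 comparison and the interaction were not followed in this way. Sums of 70673 to 74032 UMIs in Scramble limit the precision of low genes.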
